A study of Mus musculus with 2 samples.

Results

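The genes described here encode the nuclear subunits of respiratory complex I. They are the 37 rows, of 24532 genes in the count table, whose whole symbol is Ndufa, Ndufb, Ndufc, Ndufs or Ndufv followed by digits, together with Ndufab1. Their messenger RNA was measured in cardiac myofibroblasts of the mouse. Fibroblasts turn into these contractile cells, which lay down matrix, when the heart is injured. Both groups were isolated from the hearts of C57BL/6 mice 3 days after an infarction and were kept in culture for 72 hours after transfection, the siBcat1 group with 12.5 nM of 1 siRNA against Bcat1 and the siControl group with 12.5 nM of a control siRNA. Each group is 1 library, so no difference has a replicate check and no p-value is given. How many animals the cells came from is not given in the sources used here.

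Complex I, the NADH:ubiquinone oxidoreductase, is the entry point of most electrons into the respiratory chain of mitochondria. It takes electrons from NADH, passes them along a chain of iron-sulfur clusters to ubiquinone, and pumps protons across the inner membrane. It is L-shaped, with a matrix arm that holds the redox centres and a membrane arm that pumps. The core subunits of the matrix arm are kept from bacteria, and a larger number of accessory subunits surround the core and are needed for its assembly and stability. Heart muscle is rich in the complex, and fibroblasts carry less of it. The core subunits of the membrane arm are encoded by mitochondrial DNA. They are not analysed here.

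The libraries held 104581819 counts over 14940 detected genes with siBcat1 and 127309329 counts over 15575 detected genes with siControl. Counts were put on 1 scale with TMM factors (trimmed mean of M values), and 1 CPM (scaled count relative to library size) then equalled 101 counts with siBcat1 and 131 counts with siControl. Bcat1, the targeted gene, whose enzyme transfers the amino group of branched-chain amino acids in the cytosol, had 99 counts with siBcat1 and 8891 with siControl, a log2 fold of -6.11. All 6 myofibroblast markers averaged more than 5 CPM over both libraries, and their summed level was 12384 CPM with siBcat1 and 21350 CPM with siControl. Col1a1 made up most of that difference (4345 CPM with siBcat1 and 11058 CPM with siControl), followed by Col3a1 (2412 CPM with siBcat1 and 4638 CPM with siControl), while Acta2 had 3139 CPM with siBcat1 and 3380 CPM with siControl, and Tagln was higher with siBcat1, at 2129 CPM against 1528 CPM with siControl. Of 7 cardiomyocyte markers, Tnnt2 alone averaged more than 5 CPM (10.3 CPM with siBcat1 and 46.3 CPM with siControl), Myh6, Ryr2 and Nppa were at 0 in both libraries, and the summed level was 10.4 CPM with siBcat1 and 46.4 CPM with siControl. Of 6 macrophage markers 1, Lyz2, averaged more than 5 CPM, Adgre1 and Ptprc were at 0 in both, and the sum was 28.7 CPM with siBcat1 and 10.3 CPM with siControl. None of 5 endothelial and 4 pericyte or smooth muscle markers averaged 5 CPM over both libraries, with sums of 12.3 and 4.63 CPM with siBcat1 and 11.9 and 8.46 CPM with siControl. The part of these marker differences in the results was not tested. In RNA from a whole culture, fewer cells of a type and less RNA per cell cannot be told apart.

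On the TMM scale, transcripts of complex I subunits were higher with siBcat1 as a group, and with the trend on transcript length subtracted their median came to -0.01. Of the 36 subunit genes that averaged at least 5 CPM, 35 had a log2 fold (siBcat1 over siControl) above 0, with Ndufa10 the exception. The median was 0.79 and the range -0.14 to 1.45, against a median of -0.06 over all 9935 genes kept by the same minimum. At least 1.5-fold higher were 25 of the 36, against 17.6% of all genes, and 0 of the 36 were at least 1.5-fold lower, against 25.6% of all genes. At least 2-fold higher were 7 of the 36, against 5.58% of all genes, namely Ndufa5, Ndufv2, Ndufb7, Ndufa2, Ndufa8, Ndufb11 and Ndufb2. None was 2-fold lower, against 13.0% of all genes, and none was 3-fold higher, against 94 of the 9935 genes kept. The exact 95% counting interval (Clopper-Pearson) lay wholly above 0 in 35 genes and wholly below 0 in Ndufa10. These intervals cover counting error only, and reads copied by PCR are not independent molecules, so the intervals are too narrow to that extent and say nothing of the spread between cultures. The folds of subunits followed transcript length, as those of all genes did, and the values with that trend removed come after the levels below.

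**Figure D1:**
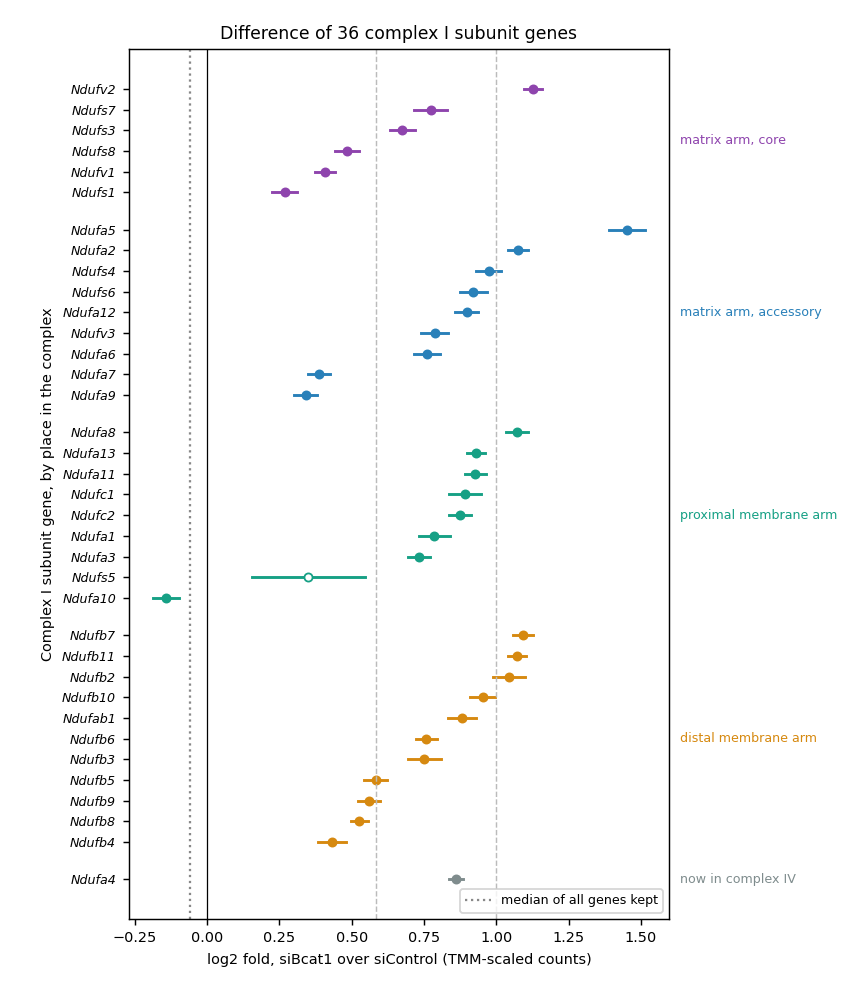
Log2 fold (siBcat1 over siControl, TMM-scaled counts) of 36 of the 37 complex I subunit genes, by place in the complex. Points are folds of 1 library over 1 library, bars are 95% intervals of counting error only, dashed lines mark 1.5-fold and 2-fold, the dotted line marks the median of all genes kept, and the open point is Ndufs5, which is below the 5 CPM minimum. All points but Ndufa10 lie right of 0 on this scale (with TPM, 28 of 36 genes are above 0), and Ndufa5 lies farthest right at 1.45.

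The 7 core subunits of the matrix arm had a median log2 fold of 0.48, and 3 of them were at least 1.5-fold higher with siBcat1, against 17.6% of all genes. Ndufv2, which carries an iron-sulfur cluster at the NADH-oxidising tip, had 20851 counts with siBcat1 and 12382 with siControl, a log2 fold of 1.13 [1.10 to 1.16]. Its partner Ndufv1, which holds the flavin that accepts electrons from NADH, had 13054 counts with siBcat1 and 12762 with siControl, a log2 fold of 0.41 [0.37 to 0.44]. The intervals of these partners do not overlap. Ndufs7, which holds the last cluster before ubiquinone, had 5744 counts with siBcat1 and 4358 with siControl (log2 fold 0.77). Ndufs3, which lies next to it near the base of the arm, had 9869 counts with siBcat1 and 8020 with siControl (log2 fold 0.67). Ndufv2 and Ndufs7 were the 2 highest core genes on the TMM scale. With the trend on transcript length subtracted, Ndufv2 was at 0.61 and Ndufs7 at -0.02. The lowest TMM fold among the core genes was that of Ndufs1, the largest subunit, with 8734 counts with siBcat1 and 9410 with siControl (log2 fold 0.27). With the trend on transcript length subtracted, Ndufs1 was also at 0.27, then above Ndufs7. Ndufs8, which carries iron-sulfur clusters, had 10210 counts with siBcat1 and 9474 with siControl (log2 fold 0.48). For Ndufs1 the unscaled count is lower with siBcat1, and the sign of its fold comes from scaling to library size. The same holds for Ndufa9 and Ndufs5 below.

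The 9 accessory subunits of the matrix arm had a median log2 fold of 0.90, and 7 of them were at least 1.5-fold higher, against 17.6% of all genes. Ndufa5, a small subunit bound near the base of the matrix arm (chr6:24518666-24528013, minus strand, GRCm38, 5 exons), had 6429 counts with siBcat1 and 3052 with siControl. Its log2 fold of 1.45 [1.39 to 1.51] was the highest of all the subunit genes. Ndufa2, which has a thioredoxin-like fold, had 17055 counts with siBcat1 and 10498 with siControl (log2 fold 1.08). Ndufs4, whose loss in people causes Leigh syndrome and whose knockout in mice is a model of it, had 11467 counts with siBcat1 and 7577 with siControl (log2 fold 0.97). Ndufs6, a zinc-binding subunit, had 9140 counts with siBcat1 and 6268 with siControl (log2 fold 0.92). Ndufa12, which joins late in assembly in the place held before by the assembly factor Ndufaf2, had 12317 counts with siBcat1 and 8574 with siControl (log2 fold 0.90). With the trend on transcript length subtracted, these 3 genes were at 0.64 (Ndufs4), -0.01 (Ndufs6) and -0.02 (Ndufa12). Ndufv3, beside Ndufv1 and Ndufv2 at the tip, had 8491 counts with siBcat1 and 6382 with siControl (log2 fold 0.79). Ndufa6, which belongs to the LYR protein family and binds the acyl carrier protein, had 9781 counts with siBcat1 and 7491 with siControl (log2 fold 0.76). The 2 genes of this group under 1.5-fold were Ndufa7, with 11001 counts with siBcat1 and 10923 with siControl (log2 fold 0.39), and Ndufa9, which has the fold of a short-chain dehydrogenase, with 10077 counts with siBcat1 and 10317 with siControl (log2 fold 0.34).

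Of the 9 accessory subunits of the proximal membrane arm 8 passed the minimum, with a median log2 fold of 0.88, and 7 of these were at least 1.5-fold higher, against 17.6% of all genes. Ndufa8, a cysteine-rich subunit on the intermembrane side, had 13581 counts with siBcat1 and 8384 with siControl (log2 fold 1.07 [1.03 to 1.11]). Ndufa13, also known as Grim19 from its part in cell death, had 19974 counts with siBcat1 and 13607 with siControl (log2 fold 0.93). Ndufa11, a membrane subunit that touches complex III in the supercomplex, had 14556 counts with siBcat1 and 9931 with siControl (log2 fold 0.93). Among small single-span subunits of this arm, log2 folds were 0.89 for Ndufc1 (6715 counts with siBcat1 and 4696 with siControl), 0.79 for the X-linked Ndufa1 (6898 with siBcat1 and 5190 with siControl) and 0.73 for Ndufa3 (11840 with siBcat1 and 9245 with siControl). Ndufc2, the partner of Ndufc1, had 13958 counts with siBcat1 and 9877 with siControl (log2 fold 0.87). Ndufa10, a matrix-facing subunit with a nucleoside-kinase fold (chr1:92439010-92473860, minus strand, GRCm38, 10 exons), stood apart from these, with 6849 counts with siBcat1 and 9803 with siControl, a log2 fold of -0.14 [-0.19 to -0.10]. Its fold was also below the median of all genes.

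Ndufs5, the ninth subunit of this group and another cysteine-rich protein of the intermembrane side, had 430 counts with siBcat1 and 438 with siControl. At a mean of 3.79 CPM it was the one member below the minimum, and its low count cannot be read without a second row of the table. That row, BC002163, is a processed pseudogene of Ndufs5 in GENCODE M21 (chr16:42955631-42955949, plus strand, GRCm38), while Ndufs5 itself lies at chr4:123712710-123718202, minus strand. The accession of the BC002163 row carries marks for both chromosomes, 16 and 4. The 319 bases of BC002163 match bases 93 to 411 of the Ndufs5 transcript, which hold its coding sequence at bases 93 to 410, with 99.4% identity. They differ by T81C and A105G, counted from the first aligned base with the Ndufs5 base first, and the longest identical run is 214 bases. Aligned bases 34 to 153 are shown in both copies from GENCODE M21 transcripts, because they hold both differences, which are in capitals.
Ndufs5: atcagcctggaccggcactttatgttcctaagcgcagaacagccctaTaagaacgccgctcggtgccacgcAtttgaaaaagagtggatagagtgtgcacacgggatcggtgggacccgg
BC002163: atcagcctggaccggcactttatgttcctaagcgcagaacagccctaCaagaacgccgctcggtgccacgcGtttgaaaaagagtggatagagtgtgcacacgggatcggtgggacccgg

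BC002163 had 8247 counts with siBcat1 and 6712 with siControl, which is 19.2 times the Ndufs5 count with siBcat1 and 15.3 times with siControl. Its log2 fold was 0.67 [0.63 to 0.72], and that of Ndufs5 was 0.35 [0.15 to 0.54]. Summed, the rows had 8677 counts with siBcat1 and 7150 with siControl, a log2 fold of 0.65 [0.61 to 0.70]. This sum lies inside the range of the other proximal subunits, at 258 TPM (abundance per transcript length, scaled to the library) with siBcat1 and 232 TPM with siControl. Which of the copies the reads came from cannot be told from gene counts. GENCODE M21 also lists processed pseudogenes of at least 95% identity for Ndufa12, Ndufab1, Ndufb11, Ndufb3, Ndufb4, Ndufs3 and Ndufs6, but these are not analysed here, and the counts of those members are uncertain to the extent that their reads were shared.

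**Figure D2:**
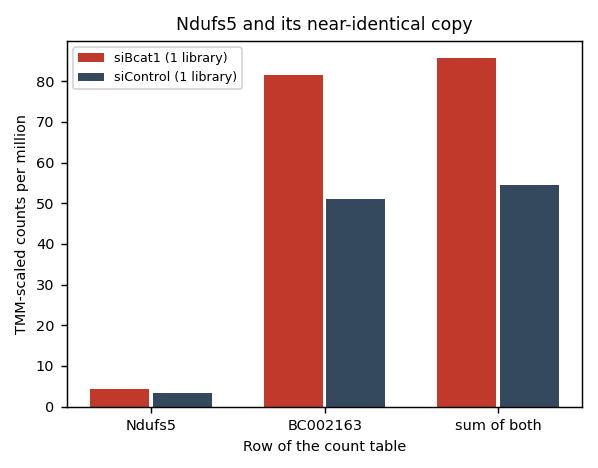
TMM-scaled counts (CPM) of Ndufs5, of the near-identical BC002163 and of their sum, with siBcat1 (red) left of siControl (blue), 1 library each and no error bar. The bars of BC002163, 81.4 CPM with siBcat1 and 51.1 CPM with siControl, make up nearly all of the sum.

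The 11 accessory subunits assigned to the distal membrane arm had a median log2 fold of 0.76, and 7 of them were at least 1.5-fold higher, against 17.6% of all genes. Ndufb7, another cysteine-rich subunit of the intermembrane side, had 16756 counts with siBcat1 and 10193 with siControl (log2 fold 1.09). Ndufb11, a single-span subunit whose gene is on the X chromosome, had 20354 counts with siBcat1 and 12571 with siControl (log2 fold 1.07). Ndufb2 had 6937 counts with siBcat1 and 4366 with siControl (log2 fold 1.04 [0.99 to 1.10]), so its counting interval reaches below 2-fold. Ndufb10, which also faces the intermembrane space, had 11561 counts with siBcat1 and 7752 with siControl (log2 fold 0.95). The 4 highest of this arm thus lay between 0.95 and 1.09. Ndufab1, the mitochondrial acyl carrier protein, which also serves lipoic acid synthesis and iron-sulfur cluster assembly, had 7914 counts with siBcat1 and 5576 with siControl (log2 fold 0.88). Ndufb6 and Ndufb3, both membrane subunits, had log2 folds of 0.76 (14056 counts with siBcat1 and 10790 with siControl) and 0.75 (5613 with siBcat1 and 4327 with siControl). Below 1.5-fold were Ndufb5 at 0.58 (10807 counts with siBcat1 and 9358 with siControl), Ndufb9, an LYR protein that binds Ndufab1, at 0.56 (12045 with siBcat1 and 10605 with siControl), Ndufb8 at 0.53 (18143 with siBcat1 and 16340 with siControl) and Ndufb4 at 0.43 (7092 with siBcat1 and 6820 with siControl). Ndufb5 lies just under the 1.5-fold line, which is at 0.585 on the log2 scale. Exons of Ndufb5 and of Mrpl47 overlap by 616 bases on opposite strands, and whether counting used strand is not given in the sources used here. Exons of 13 other members overlap opposite-strand genes by 4 to 489 bases, and the same holds for them.

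Ndufa4, named as a complex I subunit but since assigned to complex IV, had 34256 counts with siBcat1 and 24483 with siControl, a log2 fold of 0.86 [0.84 to 0.88]. Over the 28 accessory subunits kept, without it, the median was 0.88 and 21 were at least 1.5-fold higher, while over the 7 core subunits these were 0.48 and 3. The core transcripts were longer, with a median length of 1312 bases, than the accessory transcripts, at 693.5 bases. Of other genes of 1000 to 1500 bases 49.2% were at least 1.5-fold higher, and of those of 600 to 800 bases 72.2%.

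Per transcript length, in the TPM values the authors deposited, the 37 genes summed to 8917 TPM with siBcat1 and 7326 TPM with siControl, a ratio of 1.22. They held 0.893% of all TPM with siBcat1 and 0.734% with siControl. The median level was 223 TPM with siBcat1 and 179 TPM with siControl. Ndufa4 was the highest in both libraries, with 1004 TPM with siBcat1 and 785.5 TPM with siControl, and Ndufa3 the second, with 489 TPM with siBcat1 and 418 TPM with siControl. Ndufb7, Ndufa2 and Ndufb8 followed with siBcat1, at 454, 409 and 391.5 TPM, against 302, 275 and 380 TPM with siControl. At the low end stood Ndufs1, the largest subunit, with 45.3 TPM with siBcat1 and 53.4 TPM with siControl, and Ndufa11 with 78.9 TPM with siBcat1 and 58.9 TPM with siControl. Ndufs5 alone was listed lower, at 12.2 TPM with siBcat1 and 13.6 TPM with siControl, with its copy not added. The low TPM of Ndufa11 rests on a length of 2661 bases, as counts and TPM imply, against 545 bases in GENCODE M21. On the TMM scale Ndufa11 had 144 CPM with siBcat1 and 75.6 CPM with siControl. The order of the genes was much the same in both libraries, with a Spearman correlation of 0.94 over 37 genes, which are not independent replicates. Ndufa5 moved most towards the top, ranking 25th with siBcat1 (170 TPM) and 33rd with siControl (87.9 TPM), and Ndufa10 most towards the bottom, ranking 34th with siBcat1 (81.7 TPM) and 26th with siControl (128 TPM).

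**Figure D3:**
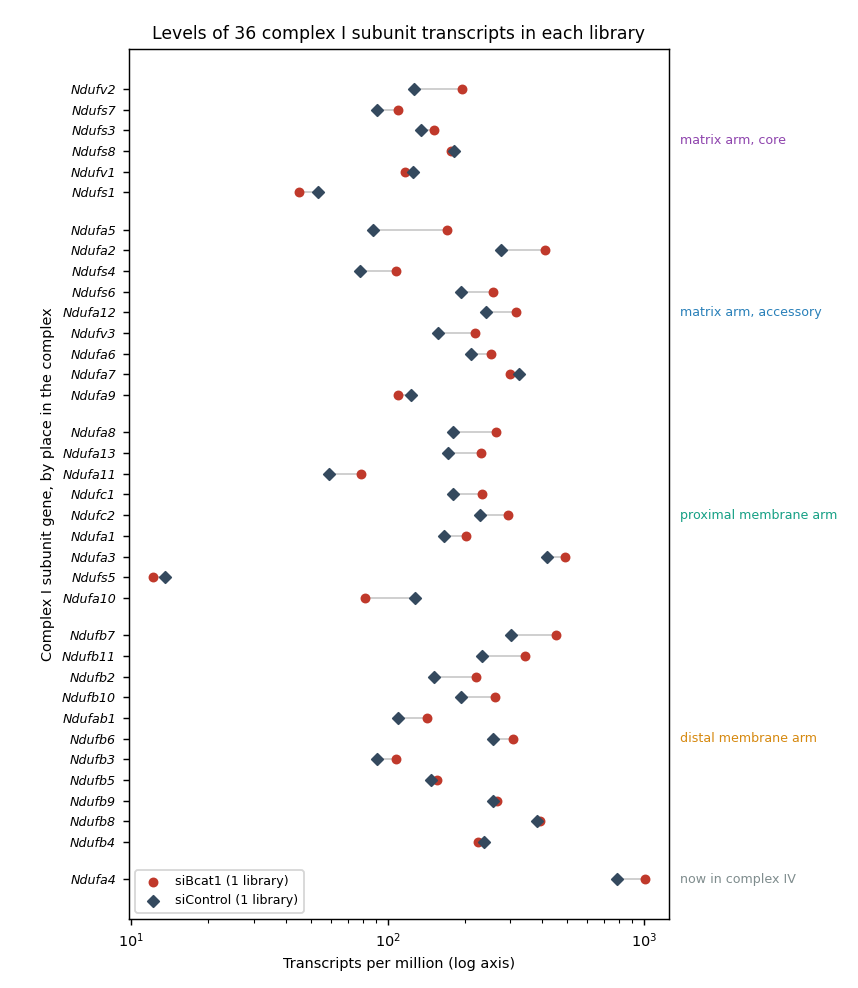
TPM (log axis) of 36 of the 37 complex I subunit genes with siBcat1 (red circles) and siControl (blue diamonds), 1 library each, by place in the complex. Ndufa4 is highest near 1000 TPM, Ndufs5 lowest near 13 TPM, and the widest gaps are those of Ndufa5, higher with siBcat1, and Ndufa10, lower with siBcat1.

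On this scale the direction of single subunits depended on the scaling. The log2(TPM + 1) difference was above 0 in 28 of 36 subunit genes, against 21.2% of all genes, and their median was 0.32 against -0.52 over all genes. The median of all genes moved by -0.46 between the TMM scale and the TPM scale, so values are best read against that shift, and 35 of 36 subunit genes were above the median of all genes on both scales. Both scales rest on the same libraries, so standing above the median on both is not a second, independent result. At least 1.5-fold higher on the TPM scale were 3 of the 36, Ndufa5, Ndufv2 and Ndufb7, and Ndufa10 was 1.5-fold lower at -0.64. Among the 8 below 0 with TPM, besides Ndufa10, were the core subunits Ndufs1, Ndufv1 and Ndufs8 and the accessory subunits Ndufa9, Ndufa7 and Ndufb4. The median of the core subunits was -0.04 on this scale, against 0.41 for the accessory subunits of the matrix arm, 0.38 for the proximal and 0.25 for the distal membrane arm. Over the same 9935 genes, the TPM scale put 354 past 1.5-fold higher and 4617 past 1.5-fold lower, against 1750 and 2544 on the TMM scale.

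Short transcripts were higher with siBcat1 throughout the data, and most complex I subunits have short transcripts. Over 9926 genes with a length in GENCODE M21, the Spearman correlation of fold with length was -0.66 across genes, which are not independent replicates, and a smooth trend on length held 38.0% of the variance of the folds. The 36 subunit genes had a median length of 760.5 bases, against 2964 bases over all genes kept. Among the subunits, length and log2 fold had a Spearman correlation of -0.35 and, on log2 length, a Pearson correlation of -0.44 across 36 genes, given as a description. The 11 subunits of 300 to 600 bases had a median log2 fold of 0.90, against 0.96 for the 106 other genes of that length, and 10 of 11 were at least 1.5-fold higher against 87.7% of those others. For 600 to 800 bases the medians were 0.82 for 8 subunits and 0.85 for 187 others. For 800 to 1000 bases they were 0.78 for 4 subunits and 0.73 for 304 others, and for 1000 to 1500 bases 0.67 for 7 subunits and 0.58 for 914 others. The 5 subunits of 1500 to 3000 bases, among them Ndufs1, Ndufs4, Ndufv1 and Ndufa10, had a median of 0.34, against 0.14 for 3498 others. In each of these bands the median of the subunits lay within the quartiles of the other genes of like length, which for the longest band were -0.22 and 0.47.

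**Figure D4:**
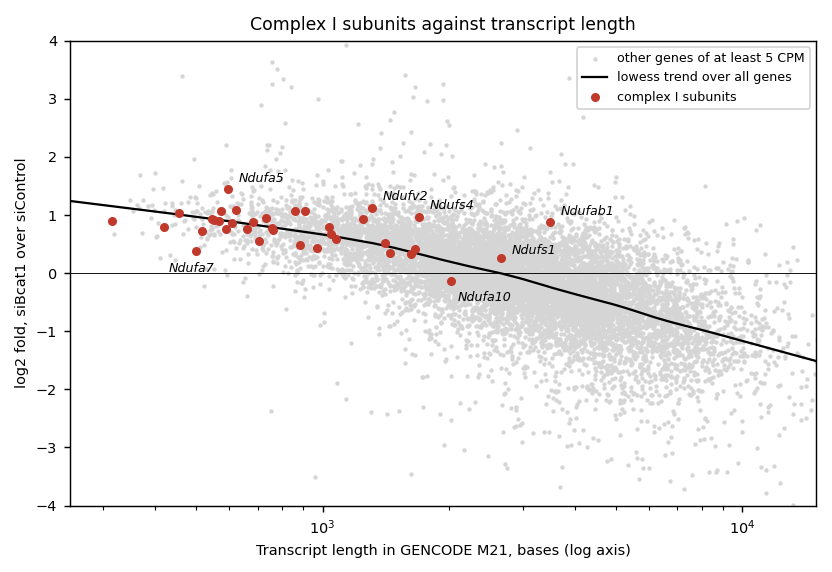
Log2 fold (siBcat1 over siControl) against transcript length (log axis) for the 36 complex I subunit genes of at least 5 CPM (red) and the other genes (grey), with the lowess trend over all genes as a line. Genes beyond the axes are not drawn, and the red points lie around the line, with Ndufa5, Ndufv2, Ndufs4 and Ndufab1 above it and Ndufa7 and Ndufa10 below.

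With the length trend subtracted, the median of the 36 subunit genes was -0.01, with 17 above 0 and 19 below. At least 1.5-fold higher were then 3 of 36, against 12.8% of all genes, and 1 of 36 was at least 1.5-fold lower, against 14.0% of all genes. The 3 were Ndufab1 (length-adjusted log2 fold 1.12), Ndufs4 (0.64) and Ndufv2 (0.61), and the lower one was Ndufa7 (-0.59). Ndufa5 came next among the higher genes at 0.55, and Ndufa10 among the lower ones at -0.33. The medians of the role groups came together, at 0.03 for the core subunits, -0.01 for the accessory subunits of the matrix arm, -0.12 for the proximal and 0.03 for the distal membrane arm. The gap between core and accessory subunits seen on the TMM scale was thus 0.48 against 0.88 before and 0.03 against -0.01 after the trend was subtracted.

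The length used for a gene decided the adjusted value of some members. Counts divided by TPM give, up to a constant, the length the authors' program used, and it differed by more than 1.5 times from the GENCODE length for 6 members, Ndufa10, Ndufa11, Ndufab1, Ndufb4, Ndufb8 and Ndufv3. For Ndufab1 the length was 3479 bases in GENCODE and 799.98 bases as implied, and its adjusted fold was 1.12 with the first and 0.13 with the second. For Ndufa11 it was 545 bases in GENCODE and 2661 bases as implied, with adjusted folds of -0.01 and 0.94. For Ndufa10 it was 2020 bases in GENCODE and 1209 bases as implied, with adjusted folds of -0.33 and -0.69. With implied lengths, 2 subunits were at least 1.5-fold higher (Ndufa11 at 0.94 and Ndufv2 at 0.74), 1 was lower (Ndufa10), and Ndufs4 stood just under 1.5-fold at 0.58 and Ndufa5 at 0.54. Of the subunits, Ndufv2, Ndufs4 and Ndufa5 were above 0.50 with either length.

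**Figure D5:**
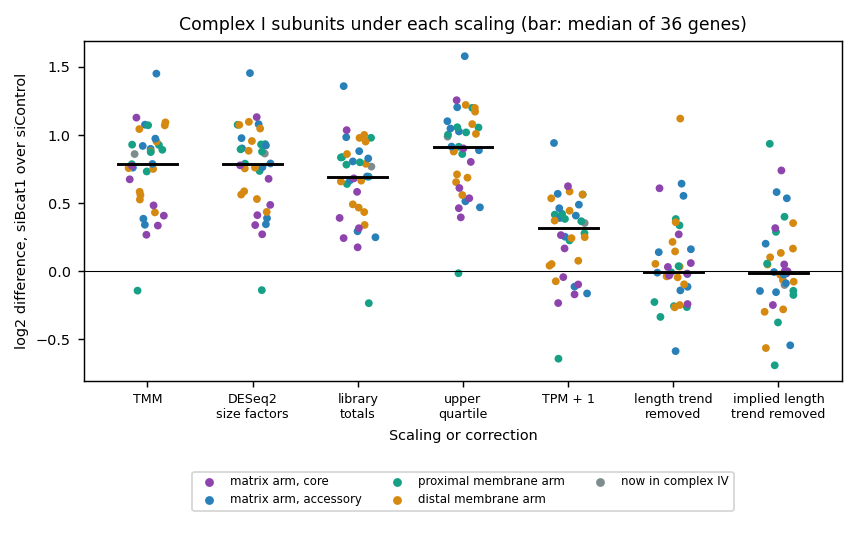
Log2 difference (siBcat1 over siControl) of the 36 complex I subunit genes under each scaling or correction, coloured by place in the complex, with a bar at the median. The median is 0.79 with TMM, 0.69 with library totals, 0.91 with upper-quartile factors and 0.32 with TPM + 1, and is -0.01 after the trend on either length is subtracted.

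Ndufv3 was the subunit whose implied length differed most between the libraries, at 557 bases with siBcat1 and 644 bases with siControl, and the next was Ndufs8, at 833 bases with siBcat1 and 821 bases with siControl. The implied length of a gene with several transcripts is a mean over them, and GENCODE M21 has Ndufv3 transcripts of 493 and 1582 bases. In 99.97% of the 6300 genes with 1 accession the implied lengths of the libraries were within 0.01 on the log2 scale. Of 3633 genes with more than 1 accession, 2.37% were at least as far apart as Ndufv3, at -0.21 on the log2 scale. The long Ndufv3 transcript is known from other work to give a larger protein isoform, and transcript counts were not analysed here.

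Promoter sequences, from 250 bases before to 50 after each RefSeq start (GRCm38.p6), were matched for 33 of the 37 genes. The words searched on both strands were ATGGCGG for YY1, GCATGCGC for NRF1, CCGGAAG for ETS factors and AAGGTCA for ESRRA, since these factors are known regulators of respiratory genes. The YY1 word was in 8 of 33 promoters (24.2%), against 4.69% of 27025 genes and 10.5% of 8037 genes kept. The NRF1 word was in 3 (9.09%), against 3.05% of all and 6.58% of kept genes, the ETS word in 4 (12.1%), against 9.93% and 22.2%, and the ESRRA word in 3 (9.09%), against 5.38% and 3.56%. A match is a description of letters and not a binding site. The 8 windows of 30 bases with the YY1 word are given because it was the word most members shared, with the word in capitals (CCGCCAT where it is on the other strand) and each on the strand of its gene.
Ndufa5 (chr6:24527528-24527557, minus strand): tggacgctgtcATGGCGGgcttgctgaaaa
Ndufa9 (chr6:126849095-126849124, minus strand): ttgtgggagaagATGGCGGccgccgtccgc
Ndufb5 (chr3:32737071-32737100, plus strand): ccggtgtagccATGGCGGccatgagcctgc
Ndufs4 (chr13:114388045-114388074, minus strand): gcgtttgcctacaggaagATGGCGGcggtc
Ndufs6 (chr13:73328433-73328462, minus strand): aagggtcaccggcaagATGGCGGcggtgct
Ndufs7 (chr10:80249465-80249494, plus strand): ccgaggccaagATGGCGGcgctggcgggtg
Ndufa7 (chr17:33824463-33824492, plus strand): tcgtgtccatgATGGCGGcgatctggcgga
Ndufa1 (chrX:37191380-37191409, minus strand): agaaagttgctCCGCCATttagagatcccc
In the first 6 of these the word holds an annotated start codon of the gene in GENCODE M21, so its letters are also the first coding bases, and in Ndufa7 and Ndufa1 it lies outside annotated exons. The genes with the YY1 word ranged from Ndufa5, the highest fold, to Ndufa9, one of the lowest. The median log2 fold was 0.78 in the 8 members with the word and 0.87 in the 24 without that passed the minimum. With the NRF1 word (Ndufa6, Ndufa8 and Ndufa11) it was 0.93 in 3 members, against 0.79 in 29 without. With the ETS word it was 0.72 in 4 members, against 0.87 in 28 without. With the ESRRA word it was 0.74 in 2 members, as Ndufs5 was below the minimum, against 0.82 in 30 without.

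Promoters of the highest and the lowest gene of the proximal membrane arm, Ndufa8 and Ndufa10, are given whole, with words found in capitals.
Ndufa8 (chr2:36049289-36049588, minus strand): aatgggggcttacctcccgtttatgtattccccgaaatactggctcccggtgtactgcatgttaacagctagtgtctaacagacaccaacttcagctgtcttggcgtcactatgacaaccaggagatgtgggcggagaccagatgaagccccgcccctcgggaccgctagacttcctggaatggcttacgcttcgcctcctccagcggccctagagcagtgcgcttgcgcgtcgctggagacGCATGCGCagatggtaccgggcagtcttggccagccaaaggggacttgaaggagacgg
Ndufa10 (chr1:92473709-92474008, minus strand): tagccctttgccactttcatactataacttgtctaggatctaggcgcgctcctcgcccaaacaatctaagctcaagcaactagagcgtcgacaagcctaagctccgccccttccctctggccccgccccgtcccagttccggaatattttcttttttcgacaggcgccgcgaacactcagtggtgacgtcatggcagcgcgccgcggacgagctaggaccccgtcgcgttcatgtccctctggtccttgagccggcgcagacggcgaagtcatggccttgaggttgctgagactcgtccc
In Ndufa8 the NRF1 word begins at base -8 from the start, and in Ndufa10 the words searched are not in this window.

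Of 18 listed assembly factors, which build complex I and are not part of it, 15 were measured, with a median log2 fold of 0.52. At least 1.5-fold higher were 7 of them and 0 were lower, against 17.6% and 25.6% of all genes. The largest folds were 0.99 for Ndufaf2 (2791 counts with siBcat1 and 1823 with siControl), which Ndufa12 replaces in assembly, 0.93 for Nubpl (1364 with siBcat1 and 930 with siControl), which delivers iron-sulfur clusters to the complex, and 0.85 for Ndufaf4 (2475 with siBcat1 and 1783 with siControl). The other Ndufaf genes kept had smaller log2 folds, at 0.60 for Ndufaf1, 0.41 for Ndufaf3, 0.59 for Ndufaf5, 0.62 for Ndufaf6 and 0.43 for Ndufaf7. With the length trend subtracted, the median of the assembly factors was 0.12, and that of the subunits -0.01. Ndufa4l2, a relative of Ndufa4 that hypoxia induces in other cells, had 331 counts with siBcat1 and 170 with siControl and did not pass the minimum.

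The other respiratory complexes had medians between 0.34 and 0.72 on the TMM scale. Complex IV had a median log2 fold of 0.72 over 10 nuclear genes with 7 at least 1.5-fold higher, led by Cox5a (1.27), Cox6c (1.08) and Cox4i1 (0.90). Complex V had 0.51 over 15 genes with 7 higher, led by Atp5h (1.21), Atp5e (1.20) and Atp5l (1.08), and complex III had 0.39 over 9 genes with 4 higher, led by Uqcrh (1.12), Uqcrb (1.07) and Uqcr11 (0.85). Complex II, which feeds electrons from succinate, had 0.34 over 4 genes with 0 higher, with Sdhb at 0.57, Sdhd at 0.43 and Sdhc at 0.26. In none of these 4 complexes was a gene kept at least 1.5-fold lower on the TMM scale, against 25.6% of all genes. Their median lengths ran from 631.5 bases for complex IV to 2065.5 bases for complex II, and their medians with the length trend subtracted were -0.14 for complex IV, 0.05 for complex V, -0.03 for complex III and 0.08 for complex II. Complex I, at -0.01, lies within that range. With that trend subtracted, 2 genes of complex III, 1 of complex IV and 1 of complex V were at least 1.5-fold lower, against 14.0% of all genes. In these 4 complexes 0 were then at least 1.5-fold higher, against 12.8% of all genes.

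Genes of mitochondrial amount and of the partners of complex I had medians below the 0.79 of the subunits on the TMM scale, and this order turned for all but coenzyme Q synthesis when the trend on length was subtracted. Genes of protein import and mitochondrial mass had a median log2 fold of 0.36 over 15 genes with 4 higher, led by Tomm22 (0.75), Hspd1 (0.74) and Tomm20 (0.66). Higher and lower here mean at least 1.5-fold, which held for 17.6% and 25.6% of all genes on the TMM scale. Iron-sulfur cluster assembly had 0.41 over 14 genes with 5 higher, led by the ferredoxin Fdx1 (1.08), Glrx5 (1.06) and Fdx1l (0.99). Regulators of mitochondrial biogenesis had a median of -0.01 over 9 genes, with Tfam at 0.69 and Esrra at 0.63 among the 2 at least 1.5-fold higher, and Pprc1, a relative of the coactivator Ppargc1a, at -0.66 as the 1 lower. Synthesis of coenzyme Q, the electron acceptor of complex I, had 0.20 over 12 genes with 2 higher, Coq7 (0.84) and Pdss1 (0.72), followed by Coq10a (0.52). Other dehydrogenases that reduce ubiquinone had 0.19 over 6 genes, with Sqrdl at 1.04, Etfb at 0.89 and Gpd2, of the glycerol phosphate shuttle, at -0.51. The shuttles that carry NADH electrons into mitochondria had 0.36 over 7 genes with 0 higher, and their largest folds were 0.54 for Mdh1, 0.48 for Slc25a13 and 0.42 for Slc25a11. With the length trend subtracted, the medians were 0.10 for import and mass, 0.12 for iron-sulfur cluster assembly, 0.16 for the regulators, -0.06 for coenzyme Q synthesis, 0.09 for the other dehydrogenases and 0.12 for the shuttles, against -0.01 for the complex I subunits.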

How the data were processed

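Stranded mRNA libraries were built from total RNA, per the labels' protocols. The submitters' processing notes name HISAT2, StringTie, FastQC and Trimmomatic with no version, and the build mm10. The sources used here do not say whether counting used strand or counted mates singly. The count table, as deposited by the authors, holds whole-number counts per gene, not normalized. TPM values come from the authors' deposited tables of each library and sum to 998120 with siBcat1 and 998462 with siControl. Per-sample columns not used numbered 0.

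Counts were scaled with TMM factors (0.969 with siBcat1, 1.03 with siControl) from edgeR 4.0.16 in R 4.3.3. No test was made, because each group has 1 library. Genes that averaged at least 5 CPM were kept, and folds have exact 95% counting intervals. A fold of 1.5 or 2 is a rule of size. The log2 TPM difference uses a pseudocount of 1, which understates differences of low genes. The trend on length is a lowess curve (fraction 0.3, 3 iterations, statsmodels 0.14.6) on the mean GENCODE M21 length of transcripts matched by RefSeq accession. Near-identical copies have at least 95% identity over 90% of the copy and 200 bases. Exon counts and coordinates are those of GENCODE M21. The calculations were tested on simulated data.

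The rule names all members (values of 1 of them are not reported here), Bcat1, Nduf symbols outside the rule that pass the minimum, and the 3 members of each other list with the largest absolute log2 fold. Ndufa4l2, the marker genes and BC002163 fall outside that rule and were named after their values were seen. The members and lists were chosen with earlier results of these data known. Alternatives were library totals, upper-quartile factors, size factors from DESeq2 1.42.0, TPM with a pseudocount of 1 or 0.1, other minimums, other fold limits and the length trend. The trend on the implied length was added after the data were seen.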

Additional observations from a re-analysis of the deposited data

Results flagged for a closer look

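The row BC002163, which is no subunit gene, held 8247 counts with siBcat1 and 6712 counts with siControl. It was picked out because it is a signal outside the members that stands above the limit a count of 0 allows (3 counts), and because it is the near-identical copy of Ndufs5. Whether its reads came from Ndufs5 was not tested.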

How the results depend on the processing

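No paired analysis was possible because each group has 1 library. DESeq2 size factors moved each log2 value by 0.0037, and 26 subunit genes in place of 25 were then 1.5-fold higher, with 1763 and 2531 of all genes 1.5-fold higher and lower. With library totals the median log2 fold was 0.69 over the subunit genes, 0.39 for the core, 0.81 for the accessory matrix, 0.79 for the proximal and 0.67 for the distal group, and 3 genes were 2-fold higher (390 over all genes, against 554 with TMM factors). With upper-quartile factors these were 0.91, 0.61, 1.03, 1.01, 0.88 and 16 genes (823 over all genes). With TPM and a pseudocount of 1 or of 0.1, over all 37 genes, they were 0.28, -0.042 (-0.043 with 0.1), 0.41, 0.37, 0.25 and 0 genes, with 3 genes 1.5-fold higher and 1 lower. The same counts were 3, 1 and (2-fold) 1 with the length trend subtracted, and 2, 1 and 0 with the implied length. Over all genes they were 1270, 1390 and 410 with the length trend subtracted, and 1224, 1364 and 384 with the implied length. The medians with length subtracted were -0.0083, 0.032, -0.0097, -0.12 and 0.035, and with implied length -0.010, 0.0038, -0.024, -0.043 and -0.024. A limit of 3-fold higher left 0 subunit genes, against 94 of all genes on the TMM scale.

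Values that turned below 0 with the length trend subtracted included Ndufa1 (-0.26), Ndufa3 (-0.23), Ndufa4 (-0.026), Ndufa6 (-0.14), Ndufa11 (-0.0069), Ndufa12 (-0.020), Ndufb3 (-0.037), Ndufb6 (-0.10), Ndufc1 (-0.26), Ndufs6 (-0.0097), Ndufs7 (-0.017) and the complex IV median (-0.14). So did Ndufa7 (-0.59), Ndufa9 (-0.11), Ndufb4 (-0.25), Ndufb5 (-0.044), Ndufb9 (-0.26), Ndufs8 (-0.24) and the medians of complex III (-0.034) and coenzyme Q synthesis (-0.059). With implied length the values that turned included Ndufa1 (-0.17), Ndufa3 (-0.37), Ndufa4 (-0.10), Ndufa6 (-0.14), Ndufa12 (-0.0056), Ndufb3 (-0.024), Ndufb6 (-0.076), Ndufc1 (-0.14), Ndufs6 (-0.024), Ndufv3 (-0.088) and the complex IV median (-0.13). Also among them were Ndufa7 (-0.54), Ndufa9 (-0.15), Ndufb4 (-0.56), Ndufb5 (-0.064), Ndufb8 (-0.30), Ndufb9 (-0.28), Ndufs8 (-0.25) and the medians of complex II (-0.065), complex III (-0.016) and complex V (-0.061).

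Over all genes, 1.5-fold higher and lower and 2-fold higher and lower numbered 375, 3825, 112 and 1971 with TPM + 1 and 403, 3959, 120 and 2211 with TPM + 0.1, both over the 8811 genes that averaged at least 5 TPM, and 3797, 4742, 2084 and 3086 with no minimum. A minimum of 20 CPM left 1546 genes 1.5-fold lower, 352 2-fold higher and 752 2-fold lower. With length subtracted 1390 were 1.5-fold and 530 2-fold lower, and with implied length 1364 and 532. Upper-quartile factors gave 2321 genes 1.5-fold higher and 2058 lower. With 1 library per group, depth narrows the counting interval but not the spread between cultures, which was not measured.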
